A study of Mus musculus with 15 samples.

Results

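The genes described here encode the proteins of the clotting, fibrinolysis and complement systems of blood plasma, most of which are made in the liver. The 38 members were taken by gene symbol from a fixed list of 16 clotting, 4 fibrinolysis and 18 complement genes. All 38 were on the array, and all 38 were among the 19362 genes tested.

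The tissue was mouse liver or liver tumor from the FVB/N strain, hybridised 1 sample per array to 15 one-colour Agilent arrays. For the 3 controls, liver was taken from mice whose only transgene was LAP-tTA. The 4 pre-tumor livers, 4 tumors and 4 tumors in early regression came from mice that carried LAP-tTA together with TRE-MYC. In these mice tTA, driven in liver cells by the LAP promoter, turns on the MYC transgene when doxycycline is absent from the food. Chow with 200 mg/kg doxycycline was given in all groups until the mice were more than 8 weeks old. The chow had then been withdrawn for 4 to 5 weeks in the pre-tumor group, which had no tumor yet, and for 8 to 9 weeks in the tumor group. Regression samples had 8 to 9 weeks without doxycycline and then 72 h with it back in the chow. For controls the time without doxycycline is not labelled. Nothing in the labels says that the samples of a group are different animals, so the p-values measure the spread between these samples. The design text names 11 samples in all, while the groups it lists and the deposited arrays both come to 15.

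Clotting is a cascade of plasma proteases that ends when thrombin, the product of F2, cuts fibrinogen into fibrin, and fibrinolysis is the digestion of that fibrin by plasmin, the product of Plg. Complement is a second protease cascade. It starts on microbes through antibody, lectin or alternative routes, converges on cleavage of C3 and ends with a pore built from C5 (gene Hc in the mouse) to C9. Hepatocytes make most of these proteins, while factor VIII comes largely from endothelium, complement factor D (Cfd) from fat, and ficolin A (Fcna) from macrophages. FVB/N mice are known to carry a disabling mutation of Hc, so its RNA level says nothing of the protein.

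RefSeq promoter sequences on GRCm38.p6 were matched for 30 of the 38 members. Each window ran from 250 bases before the annotated start to 50 bases after it, 300 bases in all, and was searched on both strands. Not every motif searched is reported here. The core site of C/EBP proteins, transcription factors of liver, was spelled TTGCNNAA, where N is any base. Members were counted by gene, with 31 windows for the 30 members, and all genes by window. The core lay in 9 of 30 members (30%), against 10.8% of the 32851 windows of all genes. The 9 were C3, C9, Cpb2, F11, F9, Fga, Fgb, Hrg and Klkb1. The STAT site TTCNNNGAA lay in 7 of 30 (23.3%, against 8.30%) and the TATA box TATAAA in 5 of 30 (16.7%, against 13.6%). The E-box CACGTG, the letters that MYC and its partners are best known to bind, lay in 0 of 30 members and in 7.15% of all windows. CAAAGTCCA, an HNF4 core, and TTGCGCAA, a C/EBP palindrome whose every match is also a match to TTGCNNAA, were in 0 member windows and in 0.475% and 0.183% of all windows. The matches describe letters in these windows and are not shown to be used. The 200 bases before the start are printed 5′ to 3′ for 6 members, with C/EBP cores in capitals. F9 was the clotting gene with the largest fall in tumors, Hrg the fibrinolysis gene with the largest, and C9 a complement gene that regained little of its fall. Fga and Fgb encode chains of fibrinogen, and Fcna was the member that rose. C4bp, C8g and Mbl2, with the largest falls of the complement genes, and C6, with the smallest share regained, held no C/EBP core. They are not printed, so the 6 stretches do not represent all members that fell.
F9, chrX:59999264-59999463, plus strand: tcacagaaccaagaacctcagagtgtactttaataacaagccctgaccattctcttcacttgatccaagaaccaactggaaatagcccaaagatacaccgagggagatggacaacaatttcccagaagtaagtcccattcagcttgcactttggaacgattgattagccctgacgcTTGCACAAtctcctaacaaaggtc
Fga, chr3:83025953-83026152, plus strand: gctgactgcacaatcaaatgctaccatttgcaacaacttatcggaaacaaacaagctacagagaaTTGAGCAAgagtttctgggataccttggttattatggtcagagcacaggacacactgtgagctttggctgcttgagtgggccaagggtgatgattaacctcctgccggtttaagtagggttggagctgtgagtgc
Fgb, chr3:83049864-83050063, minus strand: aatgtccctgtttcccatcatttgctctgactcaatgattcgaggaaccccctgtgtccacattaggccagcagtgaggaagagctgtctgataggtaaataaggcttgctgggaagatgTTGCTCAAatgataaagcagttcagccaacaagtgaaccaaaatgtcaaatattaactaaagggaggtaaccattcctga
Hrg, chr16:22950872-22951071, plus strand: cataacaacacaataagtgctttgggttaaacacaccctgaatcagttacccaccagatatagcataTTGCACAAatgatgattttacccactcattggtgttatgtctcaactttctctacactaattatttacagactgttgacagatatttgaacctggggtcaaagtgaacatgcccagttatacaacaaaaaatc
C9, chr15:6445146-6445345, plus strand: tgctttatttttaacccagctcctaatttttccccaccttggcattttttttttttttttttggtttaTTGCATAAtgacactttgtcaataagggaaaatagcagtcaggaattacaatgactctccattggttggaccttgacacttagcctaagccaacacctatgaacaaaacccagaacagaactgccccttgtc
Fcna, chr2:25627975-25628174, minus strand: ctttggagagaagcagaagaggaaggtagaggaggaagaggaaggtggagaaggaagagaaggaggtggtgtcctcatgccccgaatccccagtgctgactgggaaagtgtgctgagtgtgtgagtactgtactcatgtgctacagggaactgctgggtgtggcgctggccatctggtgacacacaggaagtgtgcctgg
In this stretch, F9, Fga, Fgb, Hrg and C9 each hold a single C/EBP core. Counted from -1 at the last base before the start, the core begins at -24 in F9, -135 in Fga, -80 in Fgb, -133 in Hrg and -132 in C9. The Fcna stretch holds none.

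Every level below is a log2 processed signal minus the 75th percentile of its own array, so 0 is the 75th percentile of that array and a difference of 1 is a doubling. Levels of 1 gene can be compared between arrays, but levels of different genes cannot, because each probe has its own brightness. A gene changed when limma gave it an adjusted p under 0.05, with Benjamini-Hochberg adjustment over all 19362 genes. All adjusted p-values in the text are from that fit, and ± after a difference is its standard error. The samples are bulk tissue, in which fewer cells of a type and less RNA per cell cannot be told apart.

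Between 46.4% (tumor 3) and 90.8% (pre-tumor 4) of the spots of an array were well above background. Of the 4 pre-tumor arrays, pre-tumor 3 was the highest for 29 of the 33 members measured on all 4, and pre-tumor 4 the lowest for 24. Tumor 3 was the highest of the 4 tumors for 23 of 37 members, and tumor 4 the lowest for 19. Control 2 was the lowest of the 3 controls for 20 of 38. For 34 members the probe used was well above background on all 15 arrays, and the others were F8 (10 arrays), C4bp (12), C9 (13) and Cfd (14). For the members, 12 values were missing because the spot was marked as an outlier. Of the hepatocyte markers, 8 of 10 were lower in tumors than in controls (6.98% of all genes), with a median difference of -2.05. Their summed signal, on a linear scale on which an array's 75th percentile is 1, was 2273 to 2783 in controls and 321 to 1236 in tumors. Alb, which encodes albumin, was well above background on every array.

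**Figure D1:**
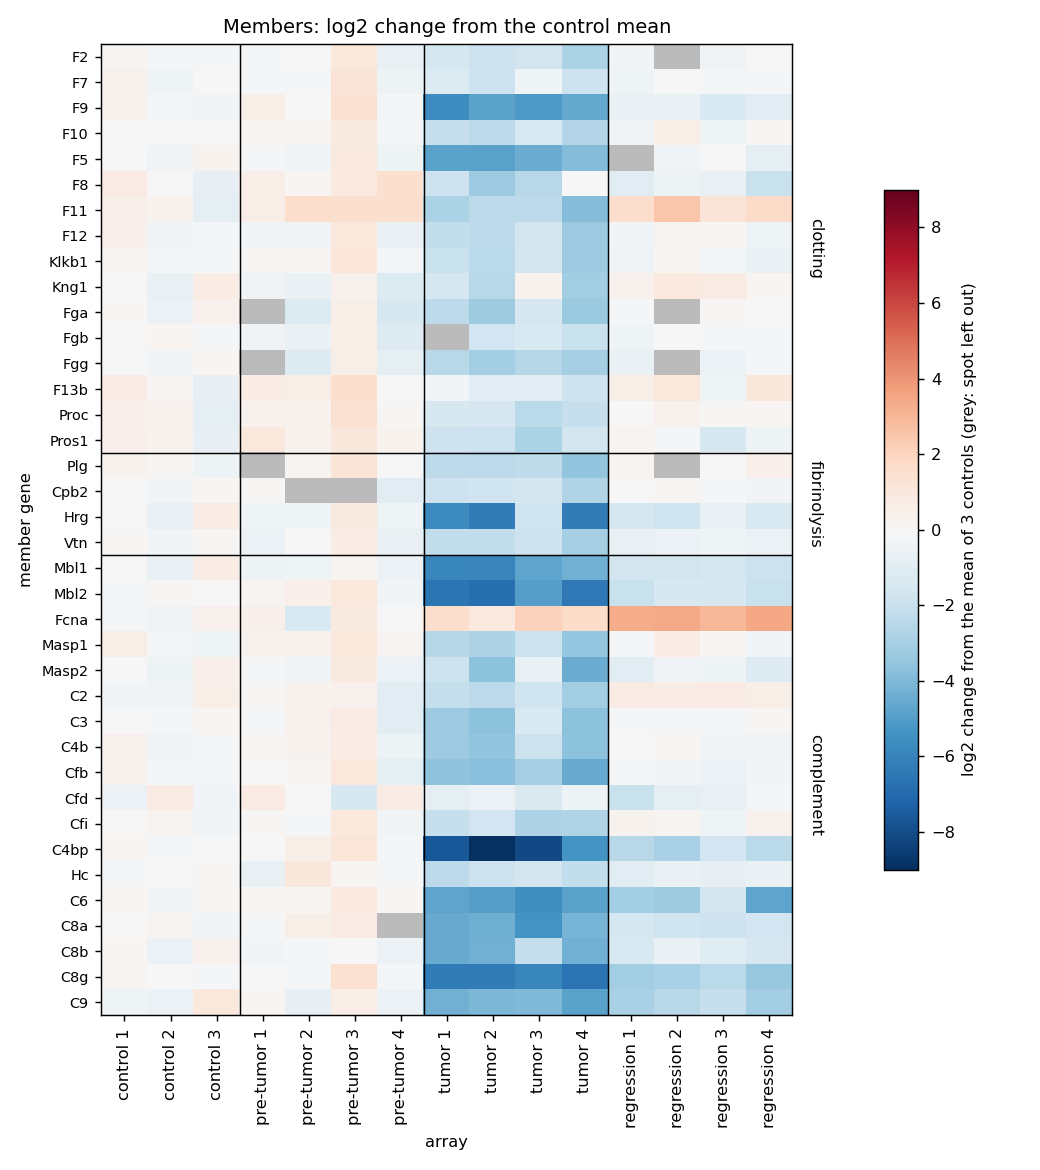
Log2 change of each of the 38 members (rows) from the mean of the 3 controls on each of the 15 arrays (columns), blue for lower and red for higher, with grey for spots left out. Nearly every row is blue in the 4 tumors, Fcna is red in tumors and regression, and several complement genes at the bottom keep a blue shade in regression.

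In livers where MYC had been on for 4 to 5 weeks without a tumor, no member passed the test. The count was 0 of 38 members and 0% of all genes by limma. At an unadjusted p under 0.05 there was 1 member, against 505 of all 19362 genes. The median difference of the members was 0.07, against -0.04 for all genes. The member with the smallest unadjusted p was F11, which encodes a protease of the contact system. Its levels were 3.13, 3.00 and 1.89 in controls and 3.30, 4.23, 4.11 and 4.12 in pre-tumor livers, which is a difference of 1.27 ± 0.46 (adjusted p = 1). The groups do not overlap for F11, as for 1.89% of all genes in that direction. The largest lower value was Fga at -0.71 ± 0.57. Within the slides that held both groups, the member median was -0.38, -0.18 and 1.01, and the last of these is the slide with pre-tumor 3.

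In tumors, clotting, fibrinolysis and complement genes fell together. Of the 38 members, 33 were lower than in controls and 1, Fcna, was higher, while 4 did not pass. Over all genes tested, 16.3% passed in this comparison, 6.98% lower and 9.32% higher. The median difference was -2.63 for the members and -0.18 for all genes. By subset, 13 of 16 clotting genes, 4 of 4 fibrinolysis genes and 16 of 18 complement genes were lower, with medians of -2.10, -2.49 and -3.42. Every tumor value lay below all 3 controls for 33 members, against 11.9% of all genes, with Fgb measured on 3 tumors. Against pre-tumor livers, 35 members were lower in tumors and 1 higher (19.1% of all genes passed, 9.08% lower), with a median of -2.68. Every tumor value lay below every pre-tumor value for 34 members, against 9.46% of all genes. Left-out spots gave Fga, Fgg, Plg and C8a 3 pre-tumor values each, Cpb2 2 pre-tumor values, and Fgb 3 tumor values. In that comparison 15 clotting, 4 fibrinolysis and 16 complement genes fell.

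The vitamin K-dependent proteases of clotting all fell in tumors, from 2.51-fold for F7 to 32.7-fold for F9. F9, which encodes factor IX, was at 4.10, 3.55 and 3.45 in controls, 4.23, 3.67, 5.06 and 3.58 in pre-tumor livers, -1.87, -1.10, -1.46 and -0.89 in tumors, and 3.11, 3.14, 2.32 and 2.77 in regression. The tumors lay far below every other sample, and the regression samples lay just below the controls without overlap, as for 15.2% of all genes. F9 fell steeply (-5.03 ± 0.40, adjusted p = 4.9e-07) and rose again in regression (4.17 ± 0.37 above tumors). Its difference of regression from controls was -0.86 ± 0.40 and did not pass (adjusted p = 0.194), but it passed with normexp background correction and quantile normalization and in the authors' table (adjusted p = 0.0292 and 0.0468). F2, which encodes prothrombin, went from 7.48 to 7.90 in controls to 4.83 to 6.07 in tumors, a 3.94-fold fall (adjusted p = 0.00329). F10, whose product cuts prothrombin, was at 4.81, 4.86 and 4.81 in controls, 2.77, 2.47, 3.47 and 2.18 in tumors and 4.53, 5.37, 4.45 and 4.96 in regression. It fell by 2.11 ± 0.36 and was back at the control mean, with a difference of 0.00 ± 0.36. F7, whose product starts clotting with tissue factor, passed by the smallest margin. Its levels were 2.31, 1.52 and 1.91 in controls and 0.71, 0.07, 1.52 and 0.05 in tumors, and its fall (-1.33 ± 0.43, adjusted p = 0.0475) was not called when any of 12 of the 15 arrays was left out (adjusted p 0.0127 to 0.162). The arrays whose removal kept the call were pre-tumor 3, pre-tumor 4 and tumor 3. The F7 call also ended with median centring, with no filter on dim probes, with slide as a block and with only the 2 groups compared in the model (adjusted p 0.0554 to 0.259).

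The cofactors of clotting were F5 and F8. F5, which encodes the cofactor of factor X, was at 3.75, 3.45 and 4.07 in controls, -1.06, -1.06, -0.68 and -0.11 in tumors, and 3.44, 3.78 and 2.91 on the 3 regression arrays with a value. It was 22.5-fold lower in tumors (-4.49 ± 0.40, adjusted p = 2.07e-06). In regression 3.78 lay in the control range and the other values below it, and the difference from controls of -0.38 did not pass. F8, which encodes the cofactor of factor IX, had dim signals, at -0.93, -1.63 and -2.44 in controls and -3.56, -4.93, -4.15 and -1.72 in tumors, with 1 of the 4 tumors well above background. Its difference of -1.92 ± 0.63 missed the threshold (adjusted p = 0.0502), and it was called with control 3, tumor 4 or regression 4 left out (adjusted p 0.00385 to 0.185 over the arrays). It was also called under 3 other settings, among them the replicate block (adjusted p 0.0322 to 0.0476). Against pre-tumor livers F8 was lower in tumors (-2.70 ± 0.59, adjusted p = 0.00353), a difference that ran from -3.32 without tumor 4 to -0.33 with normexp background correction over the alternatives. Of the 13 endothelium markers, 3 were lower in tumors than in controls (Clec4g, Fcgr2b and Lyve1) and none higher, against 6.98% and 9.32% of all genes. In regression 8 were higher than in tumors, against 8.34% of all genes. The summed signal of that list was 9.54 to 15.8 in controls, 13.8 to 26.2 in pre-tumor livers, 5.65 to 6.82 in tumors and 13.3 to 23.6 in regression, and its part in the F8 values was not tested.

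The contact system begins clotting on charged surfaces and releases bradykinin. F12, Klkb1 (plasma prekallikrein) and F11 fell in tumors, 5.23-fold, 5.09-fold and 7.29-fold. F11 was the 1 clotting gene called above controls after doxycycline was returned. It was at -0.20, 0.30, 0.34 and -1.21 in tumors and 4.26, 5.14, 3.81 and 4.43 in regression, so every regression sample was above every control. F11 was 24.3-fold higher in regression than in tumors (4.60 ± 0.42, adjusted p = 7.16e-06) and 3.33-fold higher than in controls (1.74 ± 0.46, adjusted p = 0.028). The call against controls ended with control 3, regression 1, regression 2 or regression 4 left out (adjusted p 0.0162 to 0.134 over the arrays) and with slide as a block (adjusted p = 0.0729). Klkb1, its neighbor on chromosome 8, was at 0.99 to 1.74 in regression against 1.39 to 1.82 in controls, with no such excess. Kng1, which encodes the bradykinin precursor, was at 6.55, 5.90 and 7.18 in controls and 5.03, 4.07, 6.84 and 3.41 in tumors, with tumor 3 inside the control range. Its difference of -1.71 ± 0.63 did not pass (adjusted p = 0.083), and it passed without tumor 3 (adjusted p = 0.00362). It also passed under 5 other settings, among them quantile normalization and the authors' table (adjusted p 0.0162 to 0.0417). Its second probe fell by 1.95 and passed.

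The fibrinogen chains are encoded by Fga, Fgb and Fgg, which lie side by side on chromosome 3. Fga was at 9.17, 8.51 and 9.41 in controls, 6.66, 5.85, 7.49 and 5.70 in tumors, and 8.95, 9.11 and 9.02 on the 3 regression arrays with a value. Fgb was at 10.18, 10.31 and 9.98 in controls, 8.45, 8.78 and 8.18 on 3 tumor arrays, and 9.78, 10.18, 10.05 and 9.97 in regression. Fgg was at 7.95, 7.65 and 8.09 in controls, 5.42, 4.86, 5.35 and 4.88 in tumors, and 7.33, 7.35 and 7.80 on 3 regression arrays. All 3 chains were lower in every tumor with a value than in every control, with falls of 6.07-fold for Fga, 3.22-fold for Fgb and 6.82-fold for Fgg. In regression the differences from controls were -0.01, -0.16 and -0.40, and none passed. The Fgb call ended with quantile normalization or median centring (adjusted p = 0.0986 and 0.183). Against pre-tumor livers, the Fga call ended without pre-tumor 3, tumor 2 or tumor 4 (adjusted p up to 0.0964) and the Fgb call without pre-tumor 1, tumor 2 or tumor 4 (up to 0.0736). Other settings ended both calls too, among them median centring (adjusted p up to 0.0972 for Fga and 0.177 for Fgb). F13b, the carrier subunit of the enzyme that crosslinks fibrin, was at 2.61, 1.99 and 1.14 in controls, 2.60, 2.43, 3.51 and 1.97 in pre-tumor livers and 1.68, 0.96, 0.93 and 0.04 in tumors. It did not pass against controls (-1.01 ± 0.50, adjusted p = 0.196). It was 3.30-fold lower than in pre-tumor livers (adjusted p = 0.0136), a call that ended with median centring (adjusted p = 0.0759). Its rise in regression (1.53 ± 0.46, adjusted p = 0.0301) was not called without tumor 2, tumor 3, tumor 4, regression 1, regression 2 or regression 4.

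Both anticoagulant genes of the list fell as well. Proc encodes protein C, which inactivates factors V and VIII, and Pros1 its cofactor protein S. Proc was at 8.07, 7.97 and 6.77 in controls, 6.17, 6.09, 5.18 and 5.50 in tumors and 7.64, 7.98, 7.74 and 7.80 in regression, a 3.65-fold fall and a 4.15-fold rise. Pros1 was at 1.59, 1.43 and 0.37 in controls, -0.73, -0.83, -1.75 and -0.54 in tumors and 1.39, 1.02, -0.30 and 0.70 in regression, a 4.25-fold fall and a 3.17-fold rise. Both genes separated tumors from all other groups without overlap.

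**Figure D2:**
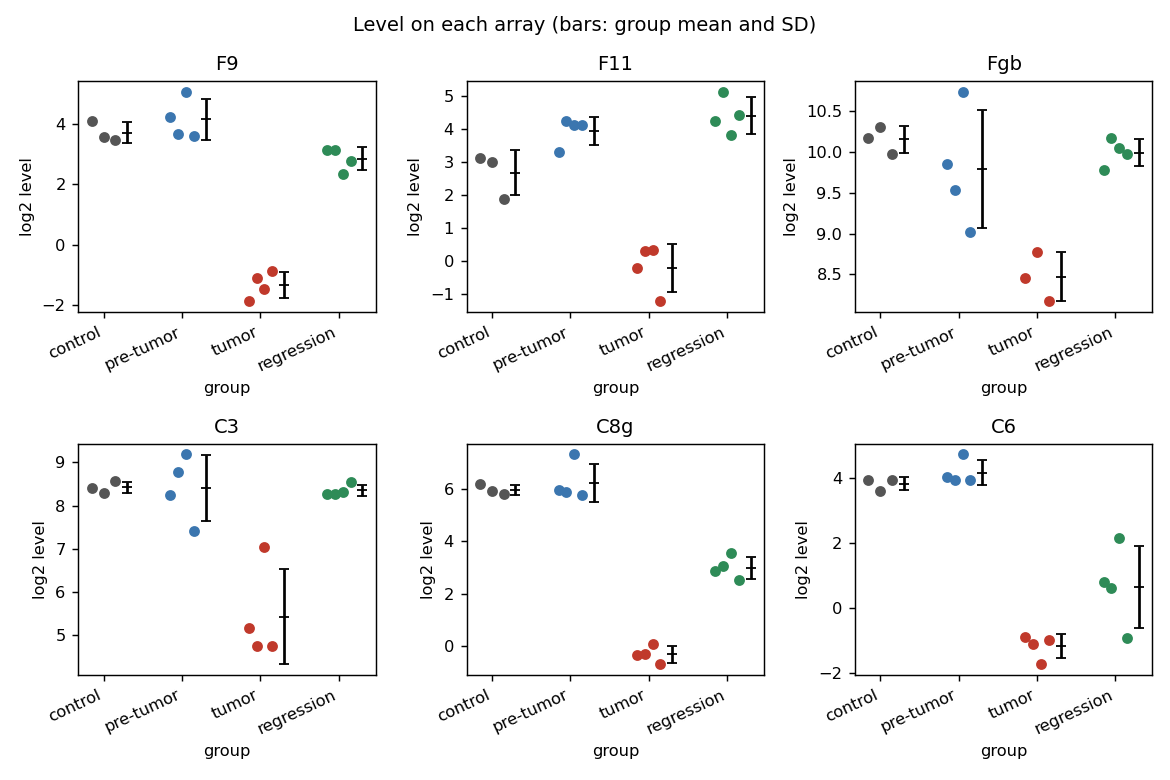
Log2 level of F9, F11, Fgb, C3, C8g and C6 on each array by group, with 1 point per array and bars for the group mean and SD. Fgb and C3 lie at control levels in regression, F11 lies above controls, and C8g and all but 1 of the C6 points lie between tumors and controls.

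The 4 fibrinolysis genes all fell in tumors and all rose in regression. Plg, which encodes plasminogen, was at 8.02, 7.78 and 7.27 in controls, 5.33, 5.31, 5.42 and 4.11 in tumors, and 7.92, 7.71 and 8.12 on 3 regression arrays. It fell 6.28-fold (adjusted p = 0.000439) and rose 7.35-fold. Cpb2, whose product slows the digestion of fibrin, was at 5.06, 4.77 and 5.21 in controls, 3.13, 3.22, 3.34 and 2.29 in tumors and 4.95, 5.13, 4.91 and 4.76 in regression, a 4.06-fold fall. Only 2 pre-tumor arrays had a Cpb2 value, and its fall against them ended without pre-tumor 1 (adjusted p = 0.212). That call also ended with median centring and with only the 2 groups compared in the model (adjusted p 0.0723 to 0.254). Vtn, which encodes vitronectin, a plasma protein that holds the plasminogen activator inhibitor PAI-1 active, fell 4.99-fold. Its regression values, 7.21 at the lowest, all lay below the controls at 8.00, 7.65 and 8.02, as for 15.2% of all genes. The difference of -0.52 ± 0.37 did not pass. It passed with normexp background correction and quantile normalization (adjusted p = 0.0469). Hrg, histidine-rich glycoprotein, which binds plasminogen and heparin, was at 4.95, 4.29 and 5.65 in controls, -0.80, -1.36, 3.14 and -1.35 in tumors, and 3.47, 3.20, 4.35 and 3.59 in regression. Tumor 3 stood far above the other tumors for Hrg. The fall was -5.06 ± 0.83 with it (adjusted p = 0.000481) and -6.13 without it, and was called with each array left out.

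The lectin pathway recognises microbial sugars through collectins and ficolins that carry the proteases MASP-1 and MASP-2. Mbl2, which encodes mannose-binding lectin C, was at 5.28, 5.46 and 5.42 in controls, -1.21, -1.41, 0.40 and -1.04 in tumors, and 3.36, 3.92, 3.95 and 3.40 in regression. It was 73.7-fold lower in tumors than in controls (-6.20 ± 0.42, adjusted p = 1.49e-07), and regression samples lay between both groups without overlap, 3.32-fold below controls (adjusted p = 0.0168). Mbl1, mannose-binding lectin A, was at 4.34, 3.74 and 5.05 in controls, -1.49, -1.58, -0.34 and 0.04 in tumors and 2.72, 2.76, 2.79 and 2.47 in regression. It fell 37.2-fold and stayed 3.23-fold below controls (adjusted p = 0.0226). Both gaps to controls were lost when single arrays were left out, for Mbl1 without control 1, control 3, regression 1, regression 2 or regression 4 (adjusted p up to 0.115) and for Mbl2 without control 2, control 3 or regression 1 (up to 0.0590). Median centring also ended both calls (adjusted p = 0.102 for Mbl1 and 0.116 for Mbl2), and slide as a block ended that of Mbl1 (adjusted p = 0.0861). Masp1 fell 6.54-fold and returned to controls (0.10 ± 0.39). Masp1 had 4 probes, of which 3 passed the filter. A second of these 3 fell by 3.39, and the last had a difference of -1.16 that did not pass. Masp2 was at 4.21, 3.67 and 4.58 in controls and 2.25, 0.47, 3.49 and -0.29 in tumors, a 6.37-fold fall that was not called without control 3 (adjusted p = 0.0599) or with only the 2 groups compared in the model (adjusted p = 0.0673). Its rise in regression, 1.94 ± 0.63 (adjusted p = 0.0461), was not called without any of 12 of the 15 arrays (up to 0.149), all but pre-tumor 3, tumor 1 and tumor 3. It also ended with slide as a block and under 4 other settings (adjusted p 0.0510 to 0.0979). The other 2 probes of Masp2 had differences of 0.60 and 0.90 that did not pass.

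Fcna, which encodes the lectin ficolin A, went the other way. Its levels were 0.59, 0.43 and 1.12 in controls, 1.16, -0.68, 1.55 and 0.71 in pre-tumor livers, 2.32, 1.60, 2.75 and 2.37 in tumors, and 4.07, 4.15, 3.70 and 4.23 in regression. The tumors lay above all controls and the regression samples above all tumors. Fcna was 2.93-fold higher in tumors than in controls (1.55 ± 0.46, adjusted p = 0.029) and higher still in regression (3.32 ± 0.46 above controls, adjusted p = 0.000261). The rise in tumors ended with slide as a block (adjusted p = 0.0938) and without control 1, control 2, tumor 1, tumor 3 or tumor 4 (0.00716 to 0.103 over the arrays), while the rise in regression was called under every setting. Of the 12 Kupffer cell and macrophage markers, 4 were higher in tumors than in controls (C1qa, Cd5l, Cd68 and Lyz2) and 2 lower (Clec4f and Marco). Over all genes 9.32% were higher and 6.98% lower. In regression 8 of these markers were higher than in tumors, against 8.34% of all genes. The summed signal of the list was 27.7 to 56.6 in controls, 25.6 to 66.2 in pre-tumor livers, 62.9 to 88.7 in tumors and 240.2 to 452.5 in regression. No marker of this list was below background on all arrays of a group, and the part of macrophages in the Fcna values was not tested.

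**Figure D3:**
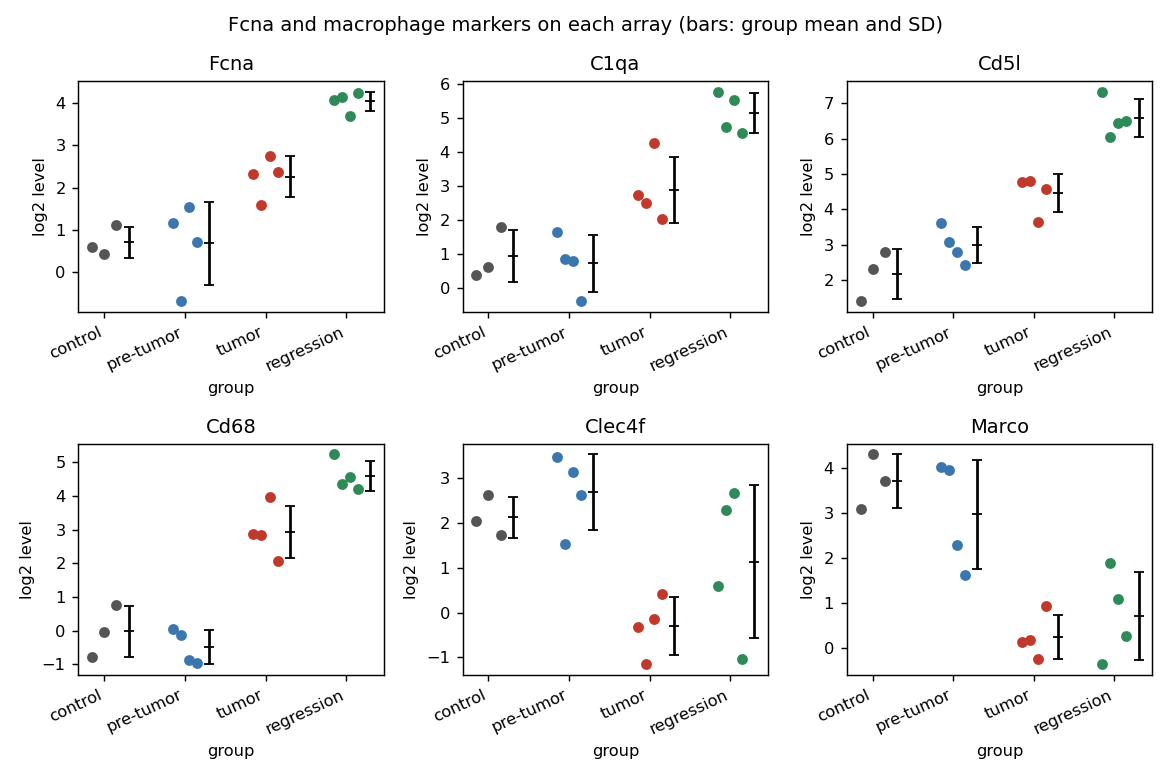
Log2 level of Fcna and 5 macrophage markers on each array by group, with 1 point per array and bars for the group mean and SD. Fcna, C1qa, Cd5l and Cd68 are highest in regression, while Clec4f and Marco are lower in tumors than in controls.

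Of the genes that form the C3 and C5 convertases, C3, C4b, Cfb and C2 fell in tumors and Cfd did not pass. C3, the central component, was at 8.40, 8.29 and 8.56 in controls, 5.16, 4.74, 7.05 and 4.76 in tumors, and 8.28, 8.27, 8.31 and 8.54 in regression. It fell 7.95-fold (-2.99 ± 0.52, adjusted p = 0.000702), with tumor 3 well above the other tumors, and in regression its difference from controls was -0.07 ± 0.52. C4b was at 5.55, 4.85 and 5.01 in controls, 1.83, 1.56, 3.23 and 1.46 in tumors and 5.11, 5.30, 4.91 and 4.84 in regression, an 8.68-fold fall. C4b has a near-identical copy, C4a, and the arrays may not separate them. Cfb, factor B of the alternative pathway, fell 13.2-fold (-3.73 ± 0.43, adjusted p = 1.55e-05), from 6.55, 6.09 and 6.05 to 2.61, 2.45, 3.25 and 1.70, and was at 6.16, 5.97, 5.74 and 5.97 in regression. C2, its counterpart in the classical and lectin pathways, fell 5.16-fold, from 3.01, 2.95 and 3.75 to 1.07, 0.88, 1.42 and 0.11. In regression C2 was at 3.95, 3.94, 4.00 and 3.78, above every control as for 10.2% of all genes, but the difference of 0.68 ± 0.40 did not pass (adjusted p = 0.305). It passed with normexp background correction and quantile normalization and in the authors' table (adjusted p = 0.0185 and 0.0480).

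Cfd, whose product cuts factor B, did not pass in any comparison. It was at -1.53, -0.26 and -1.31 in controls, -0.26, -0.98, -2.50 and -0.35 in pre-tumor livers, -1.88, -1.55, -2.34 and -1.46 in tumors and -3.06, -1.84, -1.69 and -1.19 in regression, and all groups overlap. The difference of tumors from controls was -0.77 ± 0.55 (adjusted p = 0.392). Of the 10 adipocyte markers, 1 was higher (Fabp4) and 2 lower (Car3 and Cidec) in tumors than in controls, against 9.32% and 6.98% of all genes. The summed signal of that list was 40.6 to 70.4 in controls, 39.5 to 167.6 in pre-tumor livers, 20.1 to 36.9 in tumors and 71.0 to 142.3 in regression. The sum follows the brightest probes. In regression 2 of the 10 were called higher than in controls and 0 lower, against 5.02% and 3.33% of all genes. The other 8 had a lower difference, and the median of the list was -0.75, against -0.25 for all genes. Adipoq, which defines fat cells, had a difference of -1.16 ± 0.48 in tumors that did not pass, and the part of fat tissue in the Cfd values was not tested.

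The inhibitors of the convertases in the list were C4bp and Cfi. C4bp, the plasma inhibitor of the classical convertase, was at 3.94, 3.62 and 3.71 in controls, 3.73, 4.31, 4.87 and 3.66 in pre-tumor livers, -3.89, -5.22, -4.38 and -1.59 in tumors, and 1.27, 0.86, 2.03 and 1.32 in regression. The fall was -7.53 ± 0.63 (adjusted p = 7.91e-07), but only 1 of the 4 tumors was well above background for this probe, so its size rests on signals near background. Over the alternatives it was -8.26 to -3.34, smallest with normexp background correction and quantile normalization, and called under each. A second, dimmer C4bp probe fell by 2.46 in tumors and showed no rise in regression, with a difference of -0.01 ± 0.51. Regression samples stayed 5.24-fold below controls on the brighter probe (adjusted p = 0.0278), a call that ended without control 1, control 2, control 3, regression 1, regression 2 or regression 4 (up to 0.0918). Cfi, the protease that cuts C3b and C4b, fell 4.93-fold from 6.04, 6.21 and 5.71 to 3.95, 4.25, 3.22 and 3.31. In regression Cfi was at 6.30, 6.26, 5.59 and 6.39, with 5.59 below every control and the others above every control. The mean difference from controls was 0.15 and did not pass.

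All 6 genes of the terminal pathway, whose products build the membrane attack complex, fell in tumors with a median of -4.46. C8g, which encodes the gamma chain of C8, was at 6.18, 5.90 and 5.81 in controls, 5.94, 5.86, 7.32 and 5.78 in pre-tumor livers, -0.34, -0.32, 0.07 and -0.69 in tumors, and 2.84, 3.05, 3.53 and 2.54 in regression. The 4 groups separate except for controls and pre-tumor livers. C8g fell 77.9-fold (-6.28 ± 0.39, adjusted p = 8.4e-08) and remained 7.85-fold below controls in regression (-2.97 ± 0.39, adjusted p = 2.0e-04). C8a, the alpha chain, was at 4.78, 4.98 and 4.51 in controls, 0.19, 0.37, -0.60 and 0.56 in tumors and 3.15, 2.94, 2.92 and 3.03 in regression, a 24.7-fold fall that left a 3.36-fold gap. C8b, the beta chain, was at 2.57, 1.92 and 2.79 in controls, -2.14, -1.86, 0.31 and -1.89 in tumors and 1.07, 1.81, 1.33 and 0.90 in regression. It fell 14.1-fold, with tumor 3 apart, and its gap of -1.15 ± 0.50 in regression did not pass (adjusted p = 0.168), although the groups do not overlap, as for 15.2% of all genes. That gap was called without tumor 3 (adjusted p = 0.0378), with normexp background correction and quantile normalization (0.0168) and in the authors' table (0.0438).

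Of the members that fell, C6 and C9 had regained the smallest share of the fall after 72 h of doxycycline. C6, which joins C5b in the forming pore, was at 3.93, 3.58 and 3.92 in controls, -0.91, -1.11, -1.73 and -0.99 in tumors, and 0.77, 0.61, 2.15 and -0.94 in regression. Regression 4 was still at tumor level. C6 was 31.9-fold lower in tumors and 8.95-fold lower in regression than in controls (-3.16 ± 0.53, adjusted p = 0.00109). C9, which forms the ring of the pore, was at 0.84, 0.70 and 2.22 in controls, -3.05, -2.81, -2.75 and -3.58 in tumors, and -1.66, -1.22, -0.82 and -1.86 in regression. Its difference from controls was -4.30 ± 0.44 in tumors, where 2 of the 4 arrays were well above background, and -2.64 ± 0.44 in regression (adjusted p = 0.00116). Over the alternatives these differences were -4.58 to -1.40 and -2.92 to -1.12, smallest with normexp background correction and quantile normalization, and called under each. The rise of C9 from tumors to regression (1.66 ± 0.41, adjusted p = 0.0106) was not called with normexp background correction or in the authors' table (adjusted p 0.144 to 0.463 over both). Hc was at 2.76, 2.96 and 3.01 in controls, 0.55, 1.01, 1.24 and 0.71 in tumors and 1.95, 2.31, 2.20 and 2.29 in regression, a 4.09-fold fall, with a gap of -0.72 ± 0.36 to controls that did not pass.

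**Figure D4:**
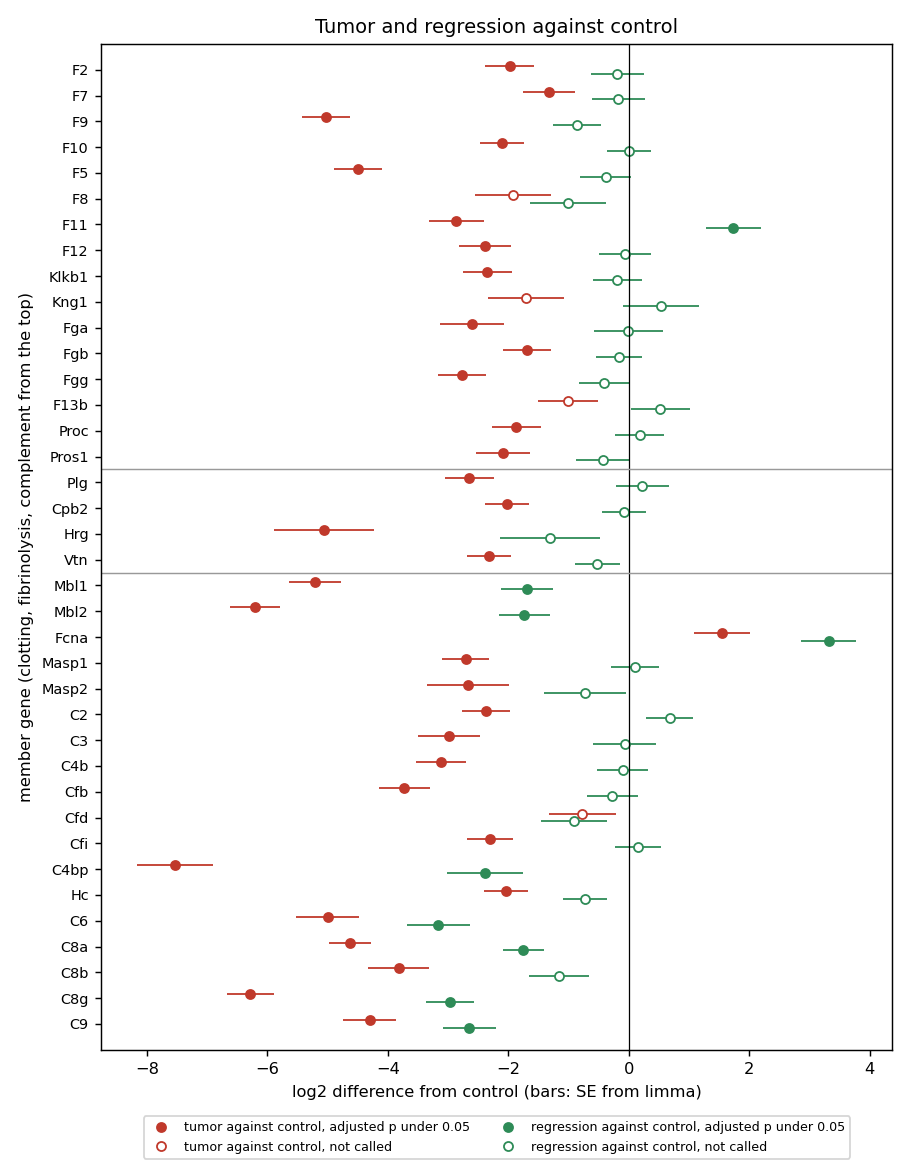
Log2 difference from control of each member in tumors (red) and in regression (green), with bars for the SE and filled points for an adjusted p under 0.05. Tumor points lie left of 0 for 37 of 38 members, and the filled green points left of 0 are all complement genes.

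After 72 h with doxycycline, 35 of 38 members were higher than in tumors and 0 were lower. Over all genes tested, 16.8% passed in this comparison, 8.34% of the total in this direction. The median difference was 2.34 for the members and -0.13 for all genes. By subset 14 of 16 clotting, 4 of 4 fibrinolysis and 17 of 18 complement genes rose, with medians of 2.13, 2.41 and 2.84. The 3 that did not pass were F7 (1.16 ± 0.40, adjusted p = 0.0614), F8 (0.91 ± 0.59, adjusted p = 0.388) and Cfd (-0.14 ± 0.51, adjusted p = 0.932). The rise of Kng1, from 5.03, 4.07, 6.84 and 3.41 in tumors to 6.90, 7.39, 7.29 and 6.74 in regression, was not called without tumor 2 (adjusted p = 0.0517). F7 was called when pre-tumor 3 or tumor 3 was left out (adjusted p 0.0176 to 0.178 over the arrays). Its rise was also called under 6 other settings, among them the authors' table (adjusted p 0.0200 to 0.0415). This comparison and that of tumors with controls share the tumor arrays, so a gene's fall and rise are not independent measurements.

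Against controls, 9 members still differed in regression, 2 higher (Fcna and F11) and 7 lower, while 8.35% of all genes passed, 5.02% higher and 3.33% lower. The 7 lower genes were C6, C8g, C9, C4bp, C8a, Mbl2 and Mbl1, all of complement. In this fit 0 of 16 clotting and 0 of 4 fibrinolysis genes were called lower, while F9 and Vtn were with normexp background correction and quantile normalization, and F9 in the authors' table too. The median difference was -0.17 for clotting, -0.30 for fibrinolysis and -0.82 for complement genes, against -0.25 for all genes. On single arrays the median change from the control mean was -0.28, 0.18, -0.13 and -0.11 for clotting genes in the 4 regression samples and -1.20, -0.61, -0.68 and -0.88 for complement genes. The complement median was below the clotting median on each regression array, and on each tumor array too, where it was -3.46, -3.73, -2.44 and -4.26 against -2.03, -2.38, -1.68 and -2.92. No test was made of the difference between subsets. The falls of C6, C8a, C8g and C9 and the excess of Fcna were called under each of the 27 alternatives. Leaving out control 3 or regression 1 brought the count of members that differed from controls down to 5.

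**Figure D5:**
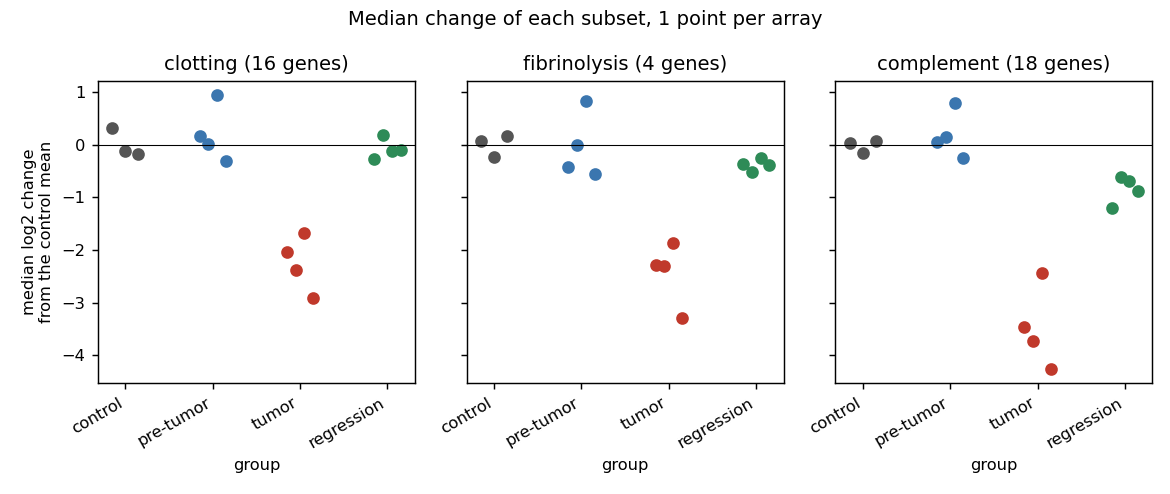
Median log2 change from the control mean over the 16 clotting, 4 fibrinolysis and 18 complement genes, with 1 point per array and a panel for each subset. In regression the clotting points lie near 0 and the complement points lie between -1.20 and -0.61.

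The share of the fall that regression had regained, taken as the log2 rise from tumor to regression over the log2 fall from control to tumor, had a median of 90.5% over the 33 genes that fell. It was 91.5% for 13 clotting, 86.8% for 4 fibrinolysis and 71.0% for 16 complement genes. At least 90% had been regained by 9 clotting, 2 fibrinolysis and 6 complement genes. Less than 50% had been regained by C6 (36.7%) and C9 (38.5%), and C8g (52.7%) and C8a (62.2%) came next. Above 100% were F11 (160.5%), C2 (128.6%), Proc (109.8%), Plg (108.5%), Cfi (106.6%), Masp1 (103.8%) and F10 (100.1%). The convertase genes C3, C4b and Cfb had regained 97.7%, 96.9% and 92.7%. The share describes group means of different samples and carries no test.

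Genes outside the list that act in the same systems were counted from fixed lists, beside 6.98% of all genes lower and 9.32% higher in tumors than in controls and 8.34% higher in regression than in tumors. Of 30 other complement genes, 12 fell in tumors and 2 rose, and 18 rose from tumor to regression. Those that fell included Clu (-4.64 ± 0.44), which encodes an inhibitor of the terminal complex. Those that rose were C1qa (1.94 ± 0.57) and C1qc (2.01 ± 0.54), chains of C1q, a product of macrophages. In regression, 8 of these 30 genes were higher than in controls and 1 lower, against 5.02% and 3.33% of all genes. Their median difference from controls was -0.35, against -0.25 for all genes. Of 23 other clotting genes, 5 fell in tumors, among them Serpina10 (-2.35 ± 0.45), Gas6 (-2.00 ± 0.40) and Serpind1 (-2.74 ± 0.64), and 2 rose. These were the thrombin receptor F2r (1.99 ± 0.36) and the related receptor F2rl1, which was not well above background on any control array, was so on 3 of 4 tumors, and was at least 5.19-fold higher. Of these 23 genes, 5 rose from tumor to regression, among them Serpind1 (3.13 ± 0.60), which encodes a thrombin inhibitor.

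Of 11 other fibrinolysis genes, 2 rose in tumors (9.32% of all genes) and 0 fell. Anxa2, which encodes a surface receptor for plasminogen, rose by 3.63 ± 0.37. A2m, which encodes the plasma protease inhibitor alpha-2-macroglobulin, was not well above background on any control array and was at least 3.52-fold higher in tumors. It rose by a further 5.63 ± 0.41 in regression and was then at least 174-fold above controls (adjusted p = 8.5e-08), at 4.94, 4.57, 4.96 and 4.44. Of 22 liver transcription factors and cytokine receptors, 8 fell in tumors (6.98% of all genes) and 0 rose. Il1r1, the receptor of interleukin 1, fell by 5.08, and Il6st, the shared signaling chain of interleukin 6 receptors, by 2.24. Il6st was at 3.28, 2.36 and 1.87 in controls, 0.29, 0.23, 0.23 and 0.29 in tumors and 3.07, 3.23, 2.24 and 2.07 in regression. Hnf4a, a master regulator of hepatocyte genes, fell by 1.32 ± 0.40 in tumors (adjusted p = 0.035), and in regression it was still lower than in controls (-1.63 ± 0.40, adjusted p = 0.018). Cebpa had a difference of -0.99 ± 0.62 in tumors that did not pass.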

How the data were processed

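One-colour Agilent arrays measured RNA in 15 samples of mouse liver or liver tumor. Per the file headers, Agilent Feature Extraction 10.5.1.1 gave each spot a processed Cy3 intensity on a linear scale, with background subtracted, and flags for outlier spots and for signals well above background. The authors also deposited a normalized table of log2 intensity, whose normalization is not given in the sources used here. Probe positions in the deposited files are not used.

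From the processed intensity, log2 values minus each array's 75th percentile were computed. Outlier spots were left out, spots of a probe were averaged, and a probe was kept when well above background on 3 or more of the 15 arrays (29926 of 34908 probes with a symbol). A gene takes its probe with the highest mean. Symbols of 4425 genes were updated by gene ID from RefSeq. A two-sided limma test (3.58.1, R 4.3.3) used 1 model of the 4 groups, with 11 residual degrees of freedom, 5 comparisons and Benjamini-Hochberg adjustment over 19362 genes. "At least" folds compare the bright group with the dimmest probe signal that counted as above background on each dim array. The files hold no mean spot signal, so normexp used the median spot signal with the median background and an offset of 50. The procedure was tested on simulated data. The precision is limited by the number of arrays.

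The members, lists and alternatives were chosen with earlier results of these data known. All 38 members are named. From each list of other pathway genes, up to 3 rises and 3 falls with the smallest adjusted p in tumors, and up to 3 that passed in regression against tumors, may be named. Cebpa and Hnf4a were named after their values were seen. Some items that these rules would name are not reported here. Replicate numbers were not taken as pairs. The 27 alternatives were other background corrections and normalizations, the authors' table, other filters, a block for the slide or for the replicate number, a fit of the compared groups alone, another variance model, the mean of all probes and each array left out.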

Additional observations from a re-analysis of the deposited data

Results flagged for a closer look

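In 12 of 103 groups of 4 arrays, the highest or lowest array lay apart from the other 3 for a member, by Dixon's test at the 95% level. Chance flags about 1 independent group in 20. The 103 groups reuse the same arrays, and pre-tumor 3 was the highest for 29 of 33 members. They are therefore not independent, and the count of 12 cannot be set against that rate. Pre-tumor 3 was high for 6 members, with levels of 8.94 for Proc, 5.80 for Hrg, 4.61 for Mbl1, 2.52 for Masp1, 4.72 for C6 and 7.32 for C8g. Tumor 3 was high for Hrg at 3.14 and for C8b at 0.31. The other arrays that lay apart were pre-tumor 1, low for F11 at 3.30, tumor 4, low for Plg at 4.11, regression 4, high for C3 at 8.54, and regression 3, low for Cfi at 5.59. No member was called between pre-tumor and control livers with pre-tumor 3 left out. Tumor 3 had the smallest share of spots well above background, 46.4%, and the part of that share in its values was not tested.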

How the results depend on the processing

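Over the 27 alternatives no member changed direction where it had been called. The count of members called was 0 under each alternative in pre-tumor livers, 32 to 36 for tumors against controls, 31 to 37 against pre-tumor livers, 31 to 36 for regression against tumors and 5 to 13 for regression against controls. With 1 array left out the last count was 5 to 10, and it was 5 without control 3 or regression 1. Under every alternative, 30 of the 34 calls of tumors against controls, 30 of the 36 against pre-tumor livers, 29 of the 35 of regression against tumors and 5 of the 9 of regression against controls were kept. The median change of complement genes in tumors moved to -2.43 against controls and -2.53 against pre-tumor livers with normexp background correction and quantile normalization, and to -2.74 and -2.80 in the authors' table. With 1 array left out it was -3.75 to -3.19 against controls and -3.87 to -3.28 against pre-tumor livers, lowest without tumor 3. Its rise in regression moved to 1.77 with normexp and quantile normalization. The cause of these shifts was not tested. Median centring moved the median of all genes from -0.18 to 0.14 in tumors. The replicate numbers were not taken as pairs, since the labels give no pairing. Of 21 same-numbered pairs, 11 had a correlation above 0.1 (-0.46 to 0.61), against 2 of 21 pairs of the same slide. The median was 0.13, against -0.17 for arrays of the same slide. For 8 of 15 arrays the closest array had the same number, against 1 of 15 for the same slide. A shared factor behind the numbers was not tested. With the replicate block, 36 members were called in tumors against controls and 9 in regression against controls, and over all genes the calls went from 3156 to 4517 and from 1616 to 3544. Levels near background on tumor arrays limit the falls of C4bp, C9 and F8. Other falls against controls varied in size as well over the alternatives, and the ones given here were called under each. They ran from -5.18 to -2.94 for F9, -4.70 to -2.72 for F5, -6.13 to -3.52 for Hrg and -4.39 to -1.82 for C8b. Klkb1 ran from -2.57 to -1.10 and Masp1 from -2.96 to -1.30, while Cfb ran only from -3.98 to -3.39.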

Other observations

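Markers of other cell types were counted as well. Of all genes tested, 9.32% were higher and 6.98% lower in tumors than in controls, 8.34% were higher in regression than in tumors and 9.08% lower in tumors than in pre-tumor livers. Of 12 stellate cell and fibroblast markers, 4 were higher and 2 lower in tumors than in controls, and 9 were higher in regression than in tumors, with a median difference of 2.18. Of 11 lymphocyte markers, 4 were higher in regression than in tumors, and their summed signal was 5.19 to 6.78 in tumors and 9.62 to 13.5 in regression. Of 9 megakaryocyte and platelet markers, 1 was higher in regression than in tumors, and of 9 bile duct markers 1 was. Of 8 neutrophil markers, 3 were lower in tumors than in pre-tumor livers and none was called in tumors or regression against controls. The hepatocyte markers had medians of -2.05 in tumors and 0.16 in regression against controls, while Tat (-2.96 ± 0.71) and Arg1 (-1.89 ± 0.50) were still lower in regression.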
